A study of Mus musculus with 6 samples.

Results

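Genes of the lipid droplet were examined in mouse primary peritoneal macrophages, phagocytes of the abdominal cavity, exposed to oxidised low-density lipoprotein (oxLDL). The genes were chosen by symbol from the 27240 genes listed, and all 10 had 1 row each. They are Plin2 and Plin3 (droplet coat), Soat1 and Nceh1 (cholesteryl ester synthesis and hydrolysis), Dgat1 and Dgat2 (triglyceride synthesis), and Pnpla2, Abhd5, Hilpda and Mgll (lipolysis and its control). The 6 poly(A) RNA libraries fall into 3 labelled WT and 3 labelled KO for genotype, and all 6 carry oxLDL as treatment. The series title names the kinase DCLK1 as the gene studied in macrophages. The labels give no allele, Cre driver, age, oxLDL dose or exposure time. They also do not say whether replicates came from separate mice or cultures, so p-values reflect only the scatter of these 6 samples, part of which could be technical.

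Macrophages that take up modified lipoproteins hydrolyse the cholesteryl esters in lysosomes, and the freed cholesterol is esterified again at the endoplasmic reticulum by SOAT1 (also called ACAT1). The esters are stored with triglycerides in droplets coated by perilipins, which is what gives a foam cell its appearance in atherosclerotic plaques. Neutral hydrolases return cholesterol and fatty acids from the droplet, and in the triglyceride branch ATGL (gene Pnpla2) is switched on by its coactivator CGI-58 (gene Abhd5) and inhibited by HILPDA. Because all libraries had oxLDL, the values below describe loaded cells of both genotypes and not the loading itself.

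Total counts per library lay between 68053008 and 79090732, so 9 of the 10 genes had at least 794 counts in every library and Dgat2 alone was near the detection limit. Dclk1 itself had 494, 498 and 584 counts in the wild-type set against 415, 431 and 377 in the knockout set, a log2 fold change of -0.37 (edgeR adjusted p = 0.332), and so checks the genotype labels only weakly. On the first principal component (25.9% of the variance) the wild-type libraries lay at -60.7, -16.2 and -5.94 and the knockout libraries at 10.9, 34.6 and 37.3. The groups thus did not overlap on it, and wild-type replicate 1 stood farthest out. Of 6 macrophage markers, all tested, 5 had a fitted value below 0 and 1 above. The lysozyme gene Lyz2 passed, and fell from 16349 to 7970 CPM (edgeR adjusted p = 6.5e-06). Csf1r was at 1021 CPM in wild type against 965 in knockout, Adgre1 at 1057 against 1016, Cd68 at 1994 against 1993, Mertk at 112 against 110 and Itgam at 327 against 513, and none of these 5 passed. Whether the lower Lyz2 bears on the values of the 10 genes was not tested. CPM here means counts scaled to a common library size after TMM scaling.

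Of the 10 genes, the promoters of the 4 with the smallest p-values between genotypes are shown. Their values lay higher in knockout, from 1.15-fold for Nceh1 to 1.29-fold for Hilpda. Each is the 250 bases before the RefSeq start site (build GRCm38.p6), read 5′ to 3′ on the gene's strand. Plin2 is at chr4:86670060-86670309 on the minus strand, and Nceh1 at chr3:27182754-27183003, Abhd5 at chr9:122351366-122351615 and Hilpda at chr6:29272238-29272487 on the plus strand. Capitals mark matches on either strand to ACGTG or GCGTG, the core of the hypoxia response element, or to AGGTCA. The last is only a single unit of the paired sites of PPAR and other nuclear receptors.
Plin2: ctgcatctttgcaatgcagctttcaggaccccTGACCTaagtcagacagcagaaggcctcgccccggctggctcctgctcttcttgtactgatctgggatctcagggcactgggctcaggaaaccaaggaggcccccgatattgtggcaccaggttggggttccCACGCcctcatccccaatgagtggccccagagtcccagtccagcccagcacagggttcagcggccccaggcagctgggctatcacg
Nceh1: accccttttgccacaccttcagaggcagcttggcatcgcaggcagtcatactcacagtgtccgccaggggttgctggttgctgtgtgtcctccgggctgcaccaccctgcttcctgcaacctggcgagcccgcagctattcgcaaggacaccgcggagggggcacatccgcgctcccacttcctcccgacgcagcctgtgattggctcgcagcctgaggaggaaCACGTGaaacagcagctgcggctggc
Abhd5: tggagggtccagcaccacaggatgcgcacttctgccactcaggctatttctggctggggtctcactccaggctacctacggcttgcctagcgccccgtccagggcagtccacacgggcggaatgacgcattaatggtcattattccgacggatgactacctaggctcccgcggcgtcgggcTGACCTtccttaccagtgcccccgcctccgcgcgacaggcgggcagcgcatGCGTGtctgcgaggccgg
Hilpda: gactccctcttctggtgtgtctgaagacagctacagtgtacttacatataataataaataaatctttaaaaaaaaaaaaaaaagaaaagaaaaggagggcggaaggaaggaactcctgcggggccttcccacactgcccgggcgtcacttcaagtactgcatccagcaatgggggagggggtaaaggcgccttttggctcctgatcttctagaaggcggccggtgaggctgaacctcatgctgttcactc

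RefSeq promoters were found for 8 of the 10 genes, and the same search was run over all 32851 promoters of that length in the table. ACGTG was present in 16.6% of them, GCGTG in 28.2% and AGGTCA in 14%. In Nceh1 the match was CACGTG, which holds ACGTG on both strands in overlap, 26 to 21 bases before the start. Plin2 and Abhd5 each held 1 GCGTG and 1 AGGTCA, and Soat1 held 1 GCGTG. Mgll, the gene with the lowest fold of the 10, held the most of these cores. It had 2 ACGTG and 2 GCGTG before its first RefSeq start and 1 ACGTG and 6 GCGTG before its second. These windows of Mgll were 68% and 74.8% G or C, against a median of 52.4% over all promoters. The percentages of promoters above were not matched for base composition, and its part in the number of cores was not tested. Plin3 and Pnpla2 held none of the 3. The printed Hilpda window held none of these letters, while the window before a second RefSeq start of Hilpda, 138 bases downstream, held 1 ACGTG and 2 GCGTG. The paired PPAR site known as DR1 (exact letters) was in 0.0335% of promoters and in none of those found for the 10 genes. The NF-κB consensus was in 3.9% of all promoters and, of these genes, in that of Pnpla2. A match describes the letters only and says nothing of binding.

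Of the 10 genes, none passed an adjusted p of 0.05 in edgeR's quasi-likelihood test with Benjamini-Hochberg adjustment over 16239 genes, where 0.0677% of all genes passed. All 10 passed the filter on low counts. At an unadjusted p under 0.05 there were 7 of 10, all higher in knockout (Plin2, Plin3, Soat1, Nceh1, Pnpla2, Abhd5 and Hilpda), where 4.73% of all tested genes were. In 6 of them (all but Pnpla2) every knockout library lay above every wild-type library, where 8.68% of tested genes did. The median log2 fold change over the 10 was 0.16, against -0.0019 over all tested genes. The 10 genes were chosen with earlier results of these data known, so these shares are no test of the set. The shares over all genes also take in genes of low count with wider errors, such as Cideb (SE 1.24, against 0.0369 for Plin2). The sizes were small, from 1.06-fold for Soat1 to 1.29-fold for Hilpda among the 7, and the tools differed on whether they passed. DESeq2 on the same counts called 4, namely Plin2, Nceh1, Abhd5 and Hilpda, all higher in knockout. In that direction it called 1.43% of the 12762 genes to which it gave an adjusted p, a smaller base than the 16239 above. Limma with voom and sample weights called Nceh1 alone (0.0801% of genes in that direction), and limma on log2 FPKM called none of the 10.

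**Figure D1:**
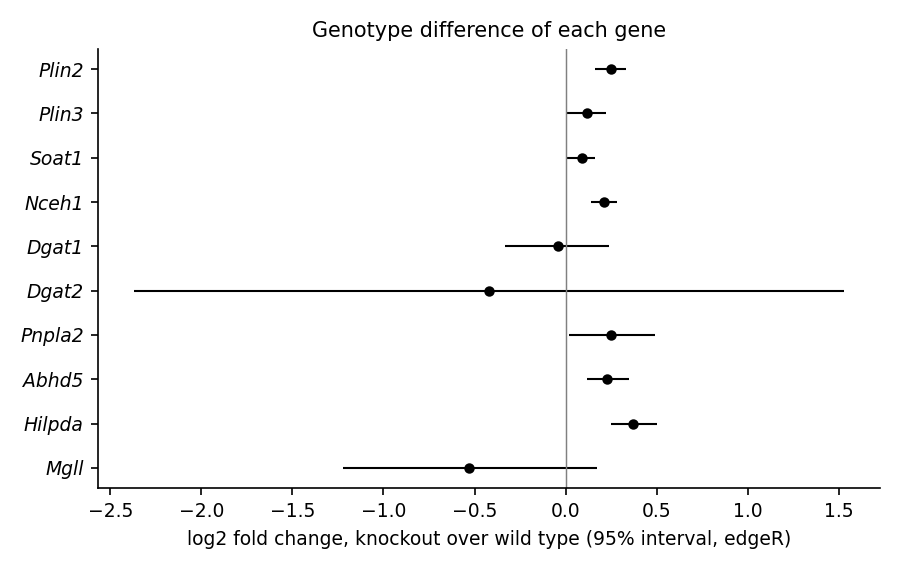
Fitted log2 fold change of knockout over wild type for the 10 genes (points) with 95% intervals (lines), from edgeR on 3 against 3 libraries. The intervals of 7 genes lie above 0, while those of Dgat1, Dgat2 and Mgll span it.

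The genes differed widely in level when compared per kilobase, on the deposited FPKM scale. Plin2, the coat protein that marks loaded macrophages, had by far the highest level of the 10, at 344 ± 15.8 FPKM (SD, n = 3) in wild-type and 412 ± 4.0 FPKM (SD, n = 3) in knockout libraries, and ranked 78 of 27240 genes by mean FPKM. It made up 53.2% to 53.9% of the summed FPKM of the 10 genes in wild-type and 54.9% to 55.7% in knockout libraries. Soat1 and Nceh1 followed at 74.9 and 68.6 FPKM in wild type, then Plin3 at 47.2, Hilpda at 44.6, Pnpla2 at 26.5, Mgll at 22.3, Abhd5 at 9.93, Dgat1 at 3.79 and Dgat2 at 0.120 FPKM. In wild type the libraries of Plin3 and Hilpda overlapped, as did those of Pnpla2 and Mgll, although within each wild-type library Hilpda lay below Plin3 and Mgll below Pnpla2. In knockout Soat1 and Nceh1 overlapped at 80.2 and 79.9 FPKM, while Hilpda at 58.2 FPKM lay above Plin3 at 51.6 FPKM in every library.

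**Figure D2:**
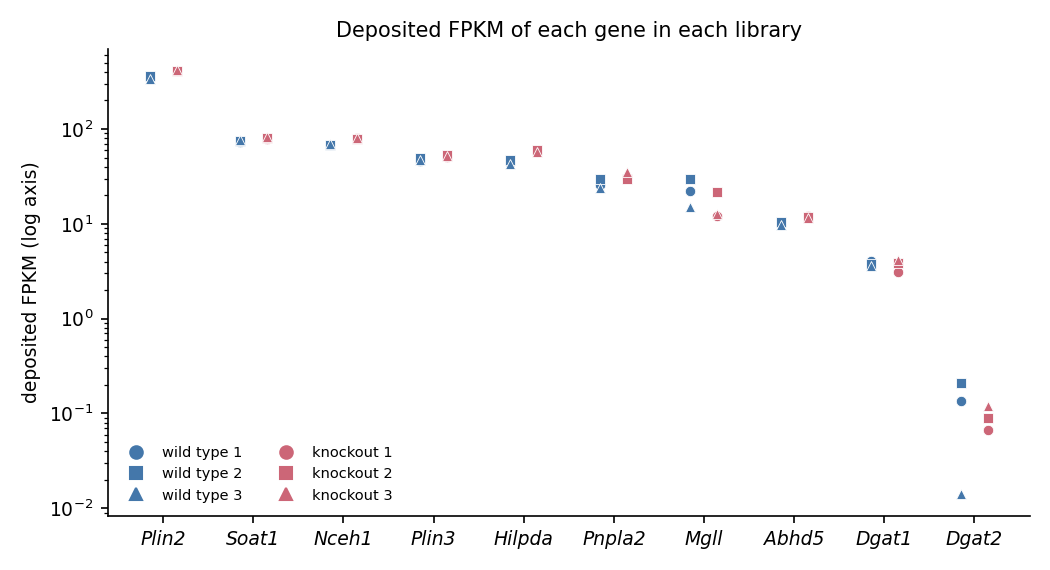
Deposited FPKM (log axis) of the 10 genes in each library, wild type in blue and knockout in red, with a marker shape for each replicate number. Plin2 stands at the top near 344 to 412 FPKM and Dgat2 at the bottom, under 0.3 FPKM in every library.

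Among the coat genes, Plin2 (ENSMUSG00000028494, chromosome 4, 86648386 to 86670060, minus strand, GRCm38) had 1304, 1430 and 1320 CPM in the wild-type set against 1585, 1613 and 1613 in the knockout set. The lowest knockout library lay 155 CPM above the highest wild-type library, wild-type replicate 2, so the groups did not overlap. The fold was 1.19 (95% interval 1.12 to 1.26; log2 fold change 0.25, SE 0.0369), with rank 45 of 16239 genes by p and an edgeR adjusted p of 0.0756. Without wild-type replicate 2 the adjusted p was 0.0116, where 0.0473% of genes passed in that direction, and without any other single library it was 0.163 to 0.262. Its 50-base sequences occur to 2.57% in Gm12551, a gene with 0 counts in all 6 libraries.

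Plin3, also known as TIP47, is a coat protein that moves between cytosol and young droplets. Its level was 194, 209 and 197 CPM in the wild-type set against 211, 224 and 215 in the knockout set. These sets were only 1.95 CPM apart, and the fold of 1.08 (interval 1.01 to 1.17) had an edgeR adjusted p of 0.433. Within each library, the ratio of Plin2 to Plin3 FPKM, which does not depend on library scaling, was 7.25, 7.36 and 7.23 for wild type against 8.09, 7.77 and 8.07 for knockout. All 3 knockout ratios were thus above the wild-type ones. Of the other coat genes listed, Plin4 had 0 to 27 counts per library, Plin5 was detected in wild-type replicate 3 alone (19 counts) and Cideb had 0 to 30 counts.

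**Figure D3:**
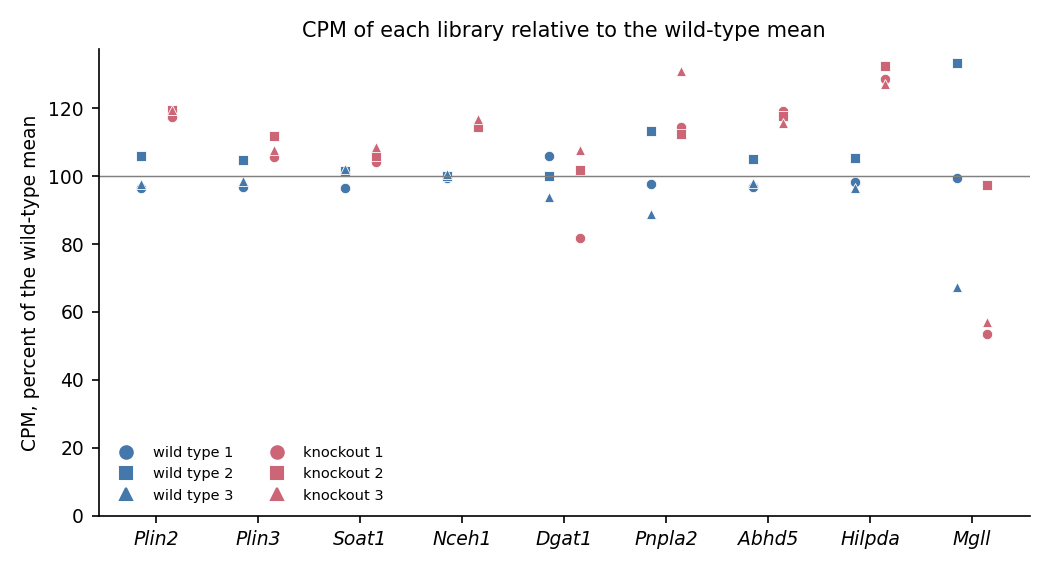
CPM of each library as a percent of the wild-type mean of the same gene, for 9 genes (Dgat2, at under 1 CPM, is left out), wild type in blue and knockout in red. Knockout libraries lie above all wild-type libraries for Plin2, Plin3, Soat1, Nceh1, Abhd5 and Hilpda, and Mgll is the most scattered of the 9.

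The sterol ester pair comprised Soat1, which makes cholesteryl esters, and Nceh1, a neutral cholesteryl ester hydrolase of macrophages. Nceh1 (ENSMUSG00000027698, chromosome 3, 27182965 to 27284608, plus strand) was the least variable of the 10, at 401, 403 and 405 CPM in the wild-type set against 464, 462 and 471 in the knockout set. The coefficient of variation was 0.586% and 0.975%, and the gap between the groups was 56.4 CPM. Its fold was 1.15 (interval 1.10 to 1.21; log2 fold change 0.21, SE 0.0291; edgeR adjusted p = 0.0756), with rank 29 by p. Under the 13 alternatives its log2 fold change stayed between 0.20 and 0.22, and its adjusted p ranged from 4.3e-05 (DESeq2) to 0.262.

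Soat1 (ENSMUSG00000026600, chromosome 1, 156424525 to 156474331, minus strand) had 790, 832 and 838 CPM in the wild-type set against 854, 868 and 890 in the knockout set. The groups were apart by 16.1 CPM, with a fold of 1.06 (interval 1.01 to 1.12) and an edgeR adjusted p of 0.410. The ratio of Soat1 to Nceh1 FPKM within a library was 1.06, 1.11 and 1.11 for wild type against 0.988, 1.01 and 1.02 for knockout. The esterifying gene therefore stood slightly above the hydrolase gene in each wild-type library and about level with it in each knockout library. The second sterol esterification gene Soat2 was far lower and nearly equal between groups, at 7.11 ± 0.737 and 7.10 ± 0.397 CPM (SD, n = 3 each). Lcat, which esterifies cholesterol in plasma, had 4 to 26 counts.

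Neither diacylglycerol acyltransferase gene differed beyond its spread. Dgat1 (chromosome 15, 76502015 to 76511951, minus strand), the enzyme of the endoplasmic reticulum, had 13.8, 13.0 and 12.2 CPM in the wild-type set against 10.6, 13.2 and 14.0 in the knockout set. Knockout libraries were both the lowest and the highest, and the log2 fold change was -0.04 (interval -0.33 to 0.24, edgeR adjusted p = 0.941). Dgat2, an unrelated enzyme that also works at droplets, had 33, 55 and 4 counts in the wild-type set against 17, 23 and 30 in the knockout set. The wild-type set thus enclosed the knockout set, and the interval of its log2 fold change, -2.37 to 1.53, leaves both a large rise and a large fall possible at this depth.

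Hilpda (ENSMUSG00000043421, chromosome 6, 29272488 to 29275446, plus strand), the inhibitor of ATGL that hypoxia and fatty acids are known to induce, had the largest fold of the 7 genes. Its level was 54.1, 57.9 and 53.1 CPM in the wild-type set against 70.7, 72.9 and 69.9 in the knockout set. The groups were 12.0 CPM apart, against an SD of 2.56 and 1.54 CPM. The fold was 1.29 (interval 1.19 to 1.41; log2 fold change 0.37, SE 0.0533; rank 34 by p; edgeR adjusted p = 0.0756), and the adjusted p ranged from 4.2e-06 (DESeq2) to 0.262 over the alternatives. Relative to Plin3 in the same library, Hilpda FPKM was 0.957, 0.949 and 0.925 for wild type against 1.15, 1.12 and 1.11 for knockout.

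Abhd5 (ENSMUSG00000032540, chromosome 9, 122351608 to 122381524, plus strand), the coactivator of ATGL, had 64.1, 69.6 and 64.8 CPM in the wild-type set against 78.9, 77.9 and 76.6 in the knockout set. The sets were 6.99 CPM apart, and the fold was 1.18 (interval 1.08 to 1.28) with an edgeR adjusted p of 0.151 and a DESeq2 adjusted p of 0.00973. In GENCODE M21, 950 exonic bases of Abhd5 lie antisense to exons of A730085K08Rik, and whether counting used strand is not given in the sources used here. That gene had 0 to 12 counts per library, against 4361 to 5906 for Abhd5. Of the 50-base sequences of Abhd5, 15.1% also occur, on either strand, in transcripts of other genes. Besides A730085K08Rik, these genes were Gm42702, Vmn1r9 and Vmn2r108, for which no counts were examined. Whether the shared sequences bear on the counts of Abhd5 was not tested.

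Pnpla2 (chromosome 7, 141455198 to 141460743, plus strand), the triglyceride lipase ATGL itself, had 87.4, 101 and 79.6 CPM in the wild-type set against 102, 101 and 117 in the knockout set. Knockout replicate 2 lay below wild-type replicate 2, so the groups overlapped, and the fold of 1.19 (interval 1.02 to 1.40) had an edgeR adjusted p of 0.428. The ratio of Hilpda to Pnpla2 FPKM overlapped between groups, at 1.56 to 1.83 in wild type and 1.63 to 1.98 in knockout. The ratio of Abhd5 to Pnpla2 FPKM also overlapped, at 0.348 to 0.413 and 0.332 to 0.393. Neither ratio therefore set the knockout libraries apart.

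Mgll (chromosome 6, 88724412 to 88828360, plus strand) encodes monoglyceride lipase, which completes triglyceride breakdown and degrades an endocannabinoid. It was the member with the lowest fitted value, at 126, 169 and 85.0 CPM in the wild-type set against 67.5, 123 and 72.3 in the knockout set. Knockout replicate 2 lay within the wild-type range, and the coefficients of variation were 33.1% and 35.3%, against 12.4% or less for Pnpla2, Abhd5 and Hilpda. The log2 fold change of -0.53 (interval -1.22 to 0.17) had an edgeR adjusted p of 0.604, and it ranged from -0.86 to -0.26 when single libraries were left out. Its exons lie antisense to 167 bases of Gm26588, a gene with 0 to 4 counts per library.

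**Figure D4:**
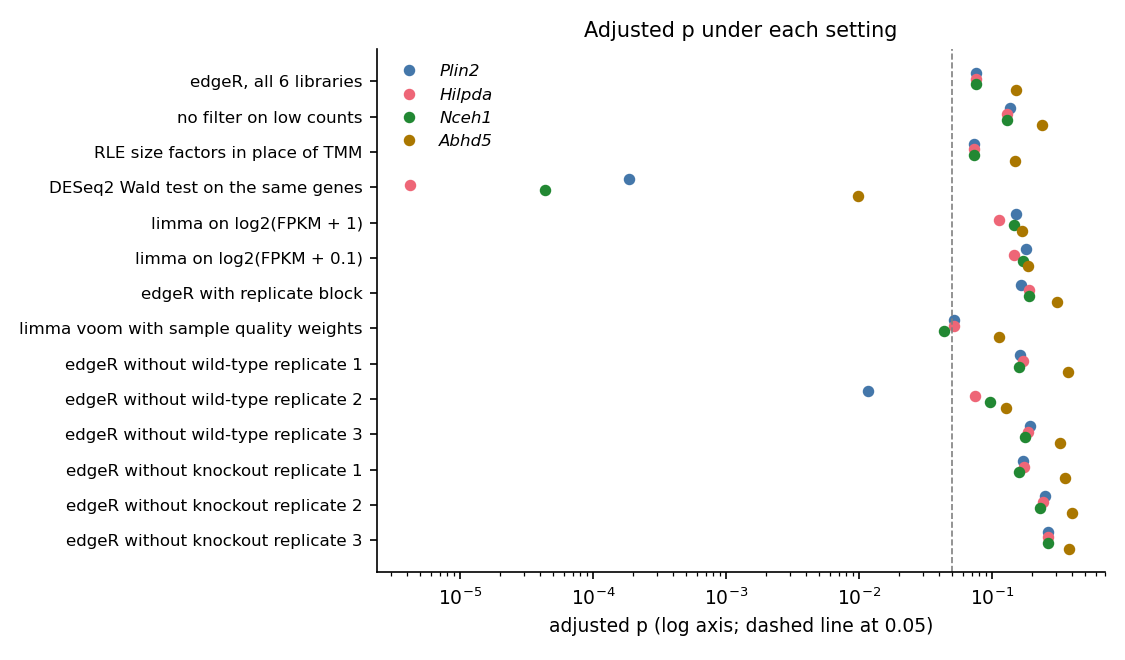
Adjusted p (log axis) of Plin2, Hilpda, Nceh1 and Abhd5 in the edgeR fit of all 6 libraries and under each of 13 alternatives, with a dashed line at 0.05. DESeq2 places all 4 genes below the line, while Plin2 without wild-type replicate 2 and Nceh1 with sample weights are the only other points below it.

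Other genes of the same pathways were taken from lists chosen by function, and none of their tested members passed in edgeR over all genes. Genes of droplet formation and the droplet surface had 15 tested members, 8 above 0 and 7 below it, and their median log2 fold change was 0.03. The smallest p-values of that list were those of the lysophospholipid acyltransferase gene Lpcat2 (49.7 ± 3.29 and 40.4 ± 3.40 CPM, adjusted p = 0.249) and of Bscl2, which encodes seipin (54.7 ± 2.62 and 46.0 ± 3.68 CPM, adjusted p = 0.291; SD, n = 3 each). Both genes had each knockout library below each wild-type library, where 8.89% of all tested genes did. Mettl7a1 (71.8 and 75.7 CPM) and Spast (36.6 and 39.2 CPM) followed by p.

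Glycerolipid synthesis had 14 tested members, 4 above and 10 below 0, with a median of -0.09. The acyltransferase gene Agpat4 was at 63.9 ± 3.40 CPM in wild type against 76.7 ± 7.21 in knockout (adjusted p = 0.290). Acsl1, which activates fatty acids to acyl-CoA, was at 306 ± 69.2 and 216 ± 64.3 CPM (adjusted p = 0.500). Gpat3 was at 3.23 and 4.32 CPM and Acsl3 at 5.28 and 4.26 CPM. The members of this list thus did not share the direction of Plin2, Nceh1 and Hilpda by count.

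Lipolysis and its control had 9 tested members, 6 above and 3 below 0, with a median of 0.05. Lipa, the lysosomal acid lipase that frees cholesterol from oxLDL, was at 2337, 2436 and 2407 CPM in the wild-type set against 2544, 2569 and 2603 in the knockout set. These sets did not overlap, and the log2 fold change was 0.10 (SE 0.0220, edgeR adjusted p = 0.144). The lysophospholipase gene Pnpla7 was at 161 ± 1.68 and 182 ± 6.34 CPM (adjusted p = 0.182), Ddhd1 at 207 and 182 CPM and the lipoprotein lipase gene Lpl at 562 and 597 CPM. G0s2, another ATGL inhibitor, had 0 to 16 counts per library, so of these 2 inhibitors only Hilpda was well detected.

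Targets of PPAR and of the hypoxia pathway were listed because both are known to act on Plin2 and Hilpda. The list also held Hif1a, a regulator of the hypoxia pathway. Of 15 tested, 12 had values above 0 and 3 below, with a median of 0.08. Of all 16239 tested genes, 8038 had values above 0 and 8201 below. Ndrg1, a hypoxia-induced gene, was at 22.3 ± 0.902 and 28.1 ± 1.22 CPM (log2 fold change 0.33, SE 0.0671, edgeR adjusted p = 0.131), with no overlap between groups. Bnip3 was at 24.4 and 27.5 CPM, Fabp4 at 258 and 273 CPM and Ldha at 332 and 350 CPM. Hif1a itself was at 234 and 223 CPM (log2 fold change -0.07, interval -0.19 to 0.06). Vegfa was at 67.9 and 67.0 CPM (log2 fold change -0.02, interval -0.2 to 0.16), so the interval of each spanned 0. Adm, also below 0, had 7 to 35 counts per library (log2 fold change -0.45, interval -2.37 to 1.46). Pdk4 had 0 or 4 counts per library and was not tested. Of the 15, 3 had all knockout libraries above all wild-type libraries and 0 had them all below. Over all tested genes these shares were 8.68% and 8.89%. At an unadjusted edgeR p under 0.05 there were 2 higher in knockout and 0 lower, against 768 and 928 of all 16239 tested genes. The 9 tested genes of lipolysis and its control likewise had 3 above and 0 below without overlap. At an unadjusted edgeR p under 0.05 that list had 2 higher and 1 lower, so such values were not particular to PPAR and hypoxia targets. Whether PPAR or the hypoxia pathway had a part in these values was not tested.

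**Figure D5:**
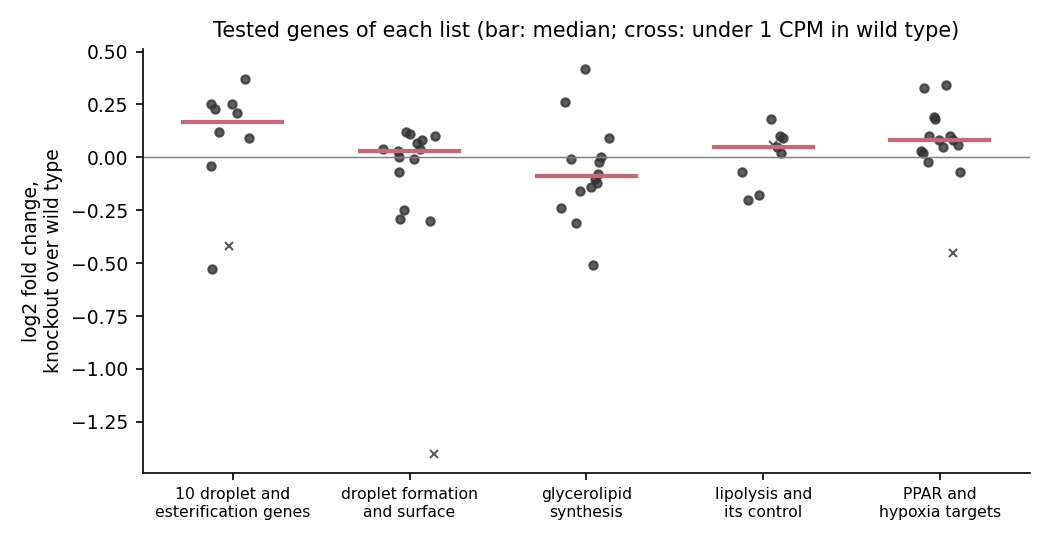
Fitted log2 fold change of knockout over wild type for each tested gene of the 10 and of 4 related lists (points, or crosses for genes under 1 CPM in wild type), with the median of each list as a bar. The median of the 10 is 0.16, and those of the other lists lie between -0.09 and 0.08.

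Markers of other cells were read beside these values, since in bulk RNA fewer cells of a type and less RNA per cell cannot be told apart. Of 9 adipocyte markers, 4 were matched by symbol, with Pck1 at 0 counts in all 6 libraries and Retn at 0 in 5. Their summed level of 263 to 274 CPM in wild-type and 276 to 286 CPM in knockout libraries was almost all Fabp4, which macrophages also express. Fibroblast and mesothelial markers (8 of 8 tested, 6 below 0) summed to 78.9 to 84.6 CPM in wild type and 61.3 to 73.2 CPM in knockout. T cell markers (4 of 4 below 0) summed to 6.50 to 8.23 and 4.56 to 4.78 CPM, and B cell markers (4 of 4 above 0) to 0.706 to 1.08 and 1.08 to 2.39 CPM. Neutrophil markers summed to 23.5 to 26.3 and 20.5 to 22.8 CPM, with Ly6g at 0 throughout. This sum was almost all S100a8, the only neutrophil marker tested, at 24.6 and 21.6 CPM. S100a9 lay the other way, with 4, 0 and 0 counts in the wild-type set against 15, 15 and 8 in the knockout set. Their part in the values of the 10 genes was not tested.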

How the data were processed

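Paired-end NovaSeq libraries were made from poly(A) RNA, per the labels' protocols, and the submitters' processing notes name HISAT2 2.0. Counter, annotation and build: not given in the sources used here. The deposited table holds, per the file headers, a count and an FPKM value per gene and library. Count values were whole numbers, and FPKM values were scaled by the authors for length and library size. Another 12 value columns, whose names fit no sample, were left out. Coordinates are as deposited. They equal GENCODE M21 (GRCm38) for 9 of the 10 genes, and Dgat1 differs at its end.

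Counts were filtered with filterByExpr (16239 genes kept), TMM-scaled and tested two-sided with edgeR 4.0.16 quasi-likelihood fits (R 4.3.3) and a genotype term alone. Adjustment was by Benjamini-Hochberg over all genes, with calls at 0.05. Intervals are at 95%. The scripts were tested on simulated counts. Alternatives were no filter, RLE, DESeq2 1.42.0, limma 3.58.1 on log2(FPKM + 1) and log2(FPKM + 0.1) for genes of at least 1 FPKM in 3 libraries, voom with sample weights, a replicate block and leaving out each library. The genes and lists were chosen with earlier results of these data known. From each related list the 4 genes of smallest unadjusted p were named, of lists with more than 2 tested members. Hif1a, Vegfa, Adm, Pdk4, G0s2, Plin4, Plin5, Cideb, Soat2, Lcat, Rab18, the macrophage markers, Pck1, Retn, S100a9 and Ly6g were named after their values were seen. Symbols with several gene IDs were represented by the ID of highest mean count. Promoter sequences are from RefSeq (GRCm38.p6).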

Additional observations from a re-analysis of the deposited data

How the results depend on the processing

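The count of the 10 genes called was 0 in edgeR, 4 with DESeq2, 1 with limma voom and sample weights, and 0 to 1 when single libraries were left out. With no filter, RLE size factors, either limma fit on FPKM or the replicate block it stayed at 0. Over all genes the count of 11 became 7 with no filter, 455 with DESeq2, 7 with limma on log2(FPKM + 0.1), 22 with limma voom and sample weights, 3 with the replicate number as a block, and 7 to 35 when single libraries were left out. The causes were not tested. Same-numbered libraries correlated by 0.049, 0.027 and 0.017 in their deviations from the group means, so the numbers were not taken to pair the samples, although each was highest with its own number. Plin2, Plin3, Soat1, Nceh1, Pnpla2, Abhd5 and Hilpda stayed above 0, and Mgll below 0, under all 13 alternatives. The log2 fold change of Dgat1 ranged from -0.12 to 0.07 when single libraries were left out and changed sign without wild-type replicate 1 (0.00087) and knockout replicate 1 (0.07). That of Dgat2 ranged from -0.95 to 0.25 in the same way, with the sign changed without wild-type replicate 2 (0.25) and with sample weights (0.53). Dgat2 had no value in the FPKM fits and no adjusted p in DESeq2. RLE, TMM and the DESeq2 factors left the median of all genes within 0.0019 of 0. Depth limits Dgat2 alone among the 10, at 4 to 55 counts.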

Other observations

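Mgll and Acsl1 shared the place of replicate 2. Mgll was highest in replicate 2 of both groups (169 and 123 CPM), and so was Acsl1, at 290, 382 and 247 CPM in the wild-type set against 193, 288 and 166 in the knockout set. Rab18, which encodes a small GTPase found on droplets, was lowest in replicate 1 of both groups, at 116, 149 and 168 CPM against 99.9, 180 and 174. These 3 genes were picked after their values were seen, and whether same-numbered libraries share a source is not stated in the labels.

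Itgam, the CD11b gene of macrophages, was at 327 ± 91.4 CPM in the wild-type set against 513 ± 91.6 in the knockout set (SD, n = 3 each), with no overlap between groups and an edgeR adjusted p of 0.344. Counts were 28206, 17275 and 26142 against 44804, 30477 and 38379, so replicate 2 was the lowest of both groups, where Mgll and Acsl1 had it as the highest.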
